A study of Mus musculus with 6 samples.

Results

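Long-term blood stem cells are set apart in mouse marrow by a small group of surface receptors and nuclear factors, and 9 of these genes are described here: Hlf, Mllt3, Mecom, Prdm16, Procr, Slamf1, Tek, Ctnnal1 and Fgd5. They were chosen by symbol from the 33924 genes of the deposited count table. All 9 had a row, and all 9 had enough reads to be tested among 15708 genes. The table covers 6 RNA libraries of mouse bone marrow from which cells with mature lineage markers had been removed with magnetic beads, 3 labelled Stag2KO and 3 labelled Stag2WT. The Stag2 protein belongs to cohesin, which forms loops in chromatin and holds sister chromatids together. The labels give the genotype and a short sample code that they do not explain, with the same letters in the codes of Stag2KO replicates 1 and 2. Nothing read here states the allele, any Cre driver, the age of the mice or whether a library is 1 animal, so each p-value speaks only of the spread among these 6 samples, which may be technical.

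As background, a long-term stem cell can rebuild all blood lineages for the life of a recipient, divides rarely, and makes up a very small share of lineage-depleted marrow. Hlf, Mecom and Prdm16 encode transcription factors and Mllt3 a reader of histone acylation, all with known roles in keeping stem cells undifferentiated. Procr, Slamf1 and Tek encode surface receptors by which these cells are sorted or held in their niche, and Ctnnal1 and Fgd5 encode cytoplasmic proteins whose reporter alleles mark stem cells in mice. Tek, Procr and Fgd5 are also active in endothelium, and Slamf1 in some lymphocytes, so none of these genes counts stem cells by itself. In a bulk sample, fewer cells of a type and less RNA per cell cannot be told apart.

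The 6 libraries held 29435651 to 37722325 reads assigned to genes. Stag2 stood at 179.6 ± 9.25 CPM (gene counts scaled to a common library size with TMM factors) in Stag2KO marrow and 330.2 ± 7.18 CPM in Stag2WT marrow (SD, n = 3 each), or 54.4% of the Stag2WT level (log2 fold change -0.88, edgeR adjusted p = 0.000278). The share of reads outside annotated genes was 11.7% ± 0.984 in Stag2KO and 9.24% ± 0.725 in Stag2WT. This share moved with genotype, and its part in the results was not tested beyond a fit with it as a covariate. Kit, the receptor gene that marks progenitors, was abundant in both groups, with 244 ± 19.5 CPM in Stag2KO marrow and 236 ± 15.8 CPM in Stag2WT marrow.

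The bases before the start of 2 of the 9 genes are shown first. These are the 2 whose Stag2KO and Stag2WT values did not overlap, which also held for 43.5% of all tested genes. Whether these letters have any part in a difference between genotypes was not tested. RefSeq start sites were found for all 9 genes, in 11 windows of GRCm38.p6, since Mecom and Mllt3 have more than 1 listed start; the counts themselves were made on mm9, and the coordinates below belong only to the sequences. The 250 bases before the start of Hlf lie on the minus strand at chr11:90390918-90391167, with the cyclic AMP response element TGACGTCA in capitals. Those of Ctnnal1 lie on the minus strand at chr4:56865212-56865461, with the GC box GGGCGGGG, a binding sequence of SP factors, in capitals.
Hlf: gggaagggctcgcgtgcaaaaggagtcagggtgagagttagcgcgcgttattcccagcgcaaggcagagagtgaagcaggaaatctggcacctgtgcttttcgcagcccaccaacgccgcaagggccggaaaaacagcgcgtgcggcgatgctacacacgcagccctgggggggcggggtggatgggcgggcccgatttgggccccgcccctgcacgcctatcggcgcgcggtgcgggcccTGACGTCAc
Ctnnal1: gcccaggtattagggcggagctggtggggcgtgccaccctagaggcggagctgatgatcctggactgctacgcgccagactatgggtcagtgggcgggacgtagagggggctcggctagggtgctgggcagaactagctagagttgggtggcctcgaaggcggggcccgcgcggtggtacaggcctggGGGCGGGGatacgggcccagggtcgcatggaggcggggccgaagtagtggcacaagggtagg
The Hlf element ends at the second-to-last base before the start, from -9 to -2. It stood in 1.55% of 32851 windows of 250 bases before a mouse start and in 1 of the 11 windows of these genes. The GC box, on either strand, stood in 16.1% of all windows and in 5 of the 11, those of Mecom, Ctnnal1, Mllt3, Fgd5 and Hlf. All motifs were searched on both strands. The site of HLF and its relatives, TTACGTAA, was in 0 of the 11 windows and in 0.113% of all windows. The GATA factor motif, AGATAA, was likewise in 0 of the 11, against 9.99% of all. An ETS factor motif, CNGGAAG, was in 1, that of Slamf1, against 26.6% of all. An E-box, CAGCTG, was in 2 windows, those of Procr and Mllt3, against 13.0% of all. Part of the CTCF motif, AGGNGGC, was in 7 of the 11, against 25% of all. A GC box and a CTCF-type match overlap in the upstream Mecom window. These matches describe letters only.

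Mecom and Prdm16 encode closely related zinc finger proteins, and the windows around their starts also share sequence. Over 300 bases each (250 before and 50 after the start), the longest run common to any 2 windows of different genes in this group, among 53 pairs, was 24 bases just after the start of both, printed here in capitals because no longer run is shared within these windows.
Mecom: GCGCATGTGCGAAGGTGTCCAAAC
Prdm16: GCGCATGTGCGAAGGTGTCCAAAC
In Mecom it runs from base 27 to base 50 after the upstream start (GRCm38.p6, minus strand, chr3:30509710-30509733), and in Prdm16 from base 10 to base 33 (minus strand, chr4:154636841-154636864). Of 32851 windows, 2 held it, 1 in each of these genes. The Mecom run ends at the last base of its window, so the match may be longer than 24 bases.

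Across the group, Hlf alone passed the test, and it rose. By edgeR's quasi-likelihood test with Benjamini-Hochberg adjustment over all tested genes, 1 of 9 genes was higher in Stag2KO at an adjusted p under 0.05, 0 were lower and 8 were not called. Of all tested genes, 10.7% were called higher and 10.5% lower, 21.2% in all, so the share called among these genes did not stand out from the background. At an unadjusted p under 0.05, 2 of the 9 were higher (Hlf and Ctnnal1), against 18.6% of all tested genes, and 0 were lower; 37.1% of all tested genes had such a p in either direction. The Stag2KO and Stag2WT values did not overlap for 2 of the 9, against 43.5% of all tested genes. Fitted log2 fold changes (Stag2KO over Stag2WT) were above 0 for 5 genes and below 0 for 4, with a median of 0.20, against 0.01 over all tested genes.

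**Figure D1:**
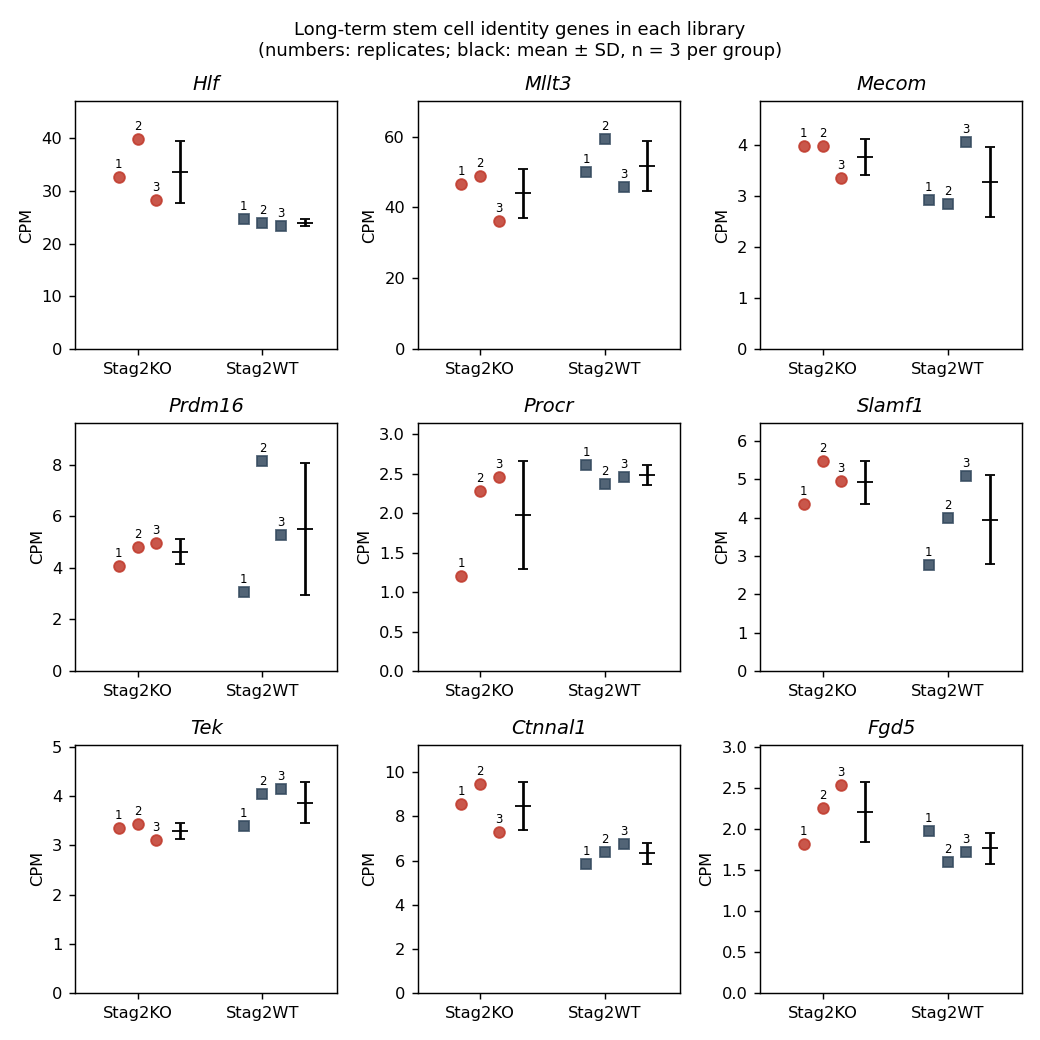
CPM of each of the 9 genes in each library (points, numbered by replicate; Stag2KO circles on the left, Stag2WT squares on the right; black marks give the mean ± SD, n = 3 per group; every axis starts at 0). For Hlf and Ctnnal1 all 3 Stag2KO points lie above all 3 Stag2WT points, while the other 7 genes overlap.

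Among the nuclear factors, Hlf showed the clearest difference. Hlf encodes a PAR bZIP transcription factor that keeps mouse stem cells quiescent and is fused to TCF3 in a human leukaemia. Hlf stood at 32.7, 39.9 and 28.3 CPM in Stag2KO replicates 1, 2 and 3, against 24.6, 24.0 and 23.3 CPM in Stag2WT replicates 1, 2 and 3. Every Stag2KO library was above every Stag2WT library, and the Stag2KO libraries were spread more widely, at 33.6 ± 5.87 CPM in Stag2KO, against 23.9 ± 0.666 CPM in Stag2WT (SD, n = 3 each). The fitted rise was 0.49 on the log2 scale (SE 0.12, edgeR adjusted p = 0.0277), a fold change of 1.40 with a 95% interval of 1.15 to 1.71. The two-sided exact permutation p was 0.1, the smallest that 3 against 3 samples allow. Between 795 and 1466 reads per library stand behind these values, so counting error is small beside the spread among Stag2KO libraries. The call rested on the full set of libraries: the adjusted p was 0.0575 without Stag2KO replicate 1, 0.0656 without Stag2KO replicate 2, and 0.0571, 0.074 and 0.0716 without Stag2WT replicates 1, 2 and 3, while it was 0.014 without Stag2KO replicate 3. The log2 fold change stayed between 0.35 and 0.60 in these 6 fits. With the share of reads outside annotated genes as a covariate it was 0.15 (adjusted p = 0.843).

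Mllt3, which encodes AF9, a reader of acylated histones in the super elongation complex and a frequent fusion partner of MLL in leukaemia, did not pass the test. Mllt3 stood at 46.7, 49.0 and 36.1 CPM in the Stag2KO libraries and 49.9, 59.4 and 45.8 CPM in the Stag2WT libraries. The groups overlapped, with Stag2KO replicate 3 lowest and Stag2WT replicate 2 highest. The log2 fold change was -0.23 (SE 0.14, 95% interval -0.55 to 0.08, edgeR adjusted p = 0.25). Hlf and Mllt3 together supplied 69.2% to 74.4% of the summed CPM of the 9 genes in Stag2KO and 70.1% to 76.7% in Stag2WT. The ratio of Hlf to Mllt3 CPM within a library was picked after the values were seen, from genes with fitted differences of opposite sign. It was 0.766 ± 0.0598 in Stag2KO and 0.468 ± 0.0567 in Stag2WT (SD, n = 3 each). Its range was 0.699 to 0.815 in Stag2KO and 0.403 to 0.508 in Stag2WT, without overlap. That gap is partly built in by the choice, and 43.5% of single tested genes had one. The exact permutation p of the ratio was 0.1, the smallest possible. How often other ratios separate the groups was not counted.

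Mecom and Prdm16 differed less between genotypes than among libraries of 1 genotype. Mecom, a zinc finger factor gene that stem cells need and that is activated by rearrangement in human myeloid leukaemia, stood at 3.98, 3.98 and 3.35 CPM in Stag2KO and 2.92, 2.86 and 4.07 CPM in Stag2WT. Both the lowest and the highest value of the 6 were in Stag2WT, so the groups overlapped (log2 fold change 0.20, SE 0.20, 95% interval -0.25 to 0.65, edgeR adjusted p = 0.492). Without Stag2WT replicate 3, its highest library, the log2 fold change was 0.38 (adjusted p = 0.198). Prdm16 stood at 4.08, 4.82 and 4.98 CPM in Stag2KO and 3.06, 8.17 and 5.27 CPM in Stag2WT. Stag2WT replicate 2, with 286 reads, was 2.67 times Stag2WT replicate 1, with 110 reads, while the highest and lowest Stag2KO libraries differed 1.22-fold. Stag2WT replicate 2 decided the sign of the difference: Prdm16 had a log2 fold change of -0.25 (SE 0.32, edgeR adjusted p = 0.613), with a 95% interval of 0.501 to 1.42 in fold change, over all libraries and 0.15 (adjusted p = 0.728) without Stag2WT replicate 2. Without Stag2WT replicate 1 it was -0.54 (adjusted p = 0.135).

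The 3 receptor genes were at low levels and none passed the test. Procr encodes the endothelial protein C receptor, a sorting marker of long-term stem cells. Procr stood at 1.20, 2.29 and 2.46 CPM in Stag2KO and 2.62, 2.37 and 2.46 CPM in Stag2WT. Stag2KO replicate 1 was lowest, with 35 reads, whose exact Poisson interval of 0.835 to 1.67 CPM lies below the values of the other 5 libraries; such intervals cover counting error only. The log2 fold change was -0.31 (SE 0.27, 95% interval -0.93 to 0.30, edgeR adjusted p = 0.429), and it was -0.06 (adjusted p = 0.852) without Stag2KO replicate 1 and -0.50 (0.300) without Stag2KO replicate 3.

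Slamf1 encodes CD150, the SLAM receptor that separates long-term stem cells from most multipotent progenitors in mice. Slamf1 stood at 4.35, 5.47 and 4.95 CPM in Stag2KO and 2.75, 4.0 and 5.09 CPM in Stag2WT, where the highest library had 1.85 times the lowest. Stag2WT replicate 3 lay within the Stag2KO range (log2 fold change 0.32, SE 0.23, 95% interval -0.21 to 0.85, edgeR adjusted p = 0.344). The fitted value was 0.12 (adjusted p = 0.714) without Stag2WT replicate 1 and 0.54 (0.135) without Stag2WT replicate 3. Tek encodes TIE2, the angiopoietin receptor. Tek stood at 3.36, 3.43 and 3.12 CPM in Stag2KO and 3.39, 4.05 and 4.16 CPM in Stag2WT, and the Stag2KO values overlapped only the lowest Stag2WT library. Its log2 fold change was -0.23 (SE 0.16, 95% interval -0.60 to 0.14, edgeR adjusted p = 0.337).

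Of the 2 cytoplasmic genes, Ctnnal1 came close to a call. Ctnnal1 encodes alpha-catulin, a relative of alpha-catenin. It stood at 8.57, 9.48 and 7.31 CPM in Stag2KO and 5.84, 6.37 and 6.76 CPM in Stag2WT, and all Stag2KO libraries were above all Stag2WT libraries. The log2 fold change of Ctnnal1 was 0.42 (SE 0.14, 95% interval 0.09 to 0.75), with an edgeR adjusted p of 0.0724 that missed the threshold. Its adjusted p was 0.0732 to 0.212 in the 6 fits without 1 library. With the share of reads outside annotated genes as a covariate, the log2 fold change of Ctnnal1 was 0.08 (edgeR adjusted p = 0.932). Fgd5, a gene for an exchange factor of CDC42, stood at 1.82, 2.26 and 2.54 CPM in Stag2KO and 1.98, 1.6 and 1.73 CPM in Stag2WT. Stag2KO replicate 1 lay among the Stag2WT libraries (log2 fold change 0.32, SE 0.21, 95% interval -0.15 to 0.80, edgeR adjusted p = 0.290).

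**Figure D2:**
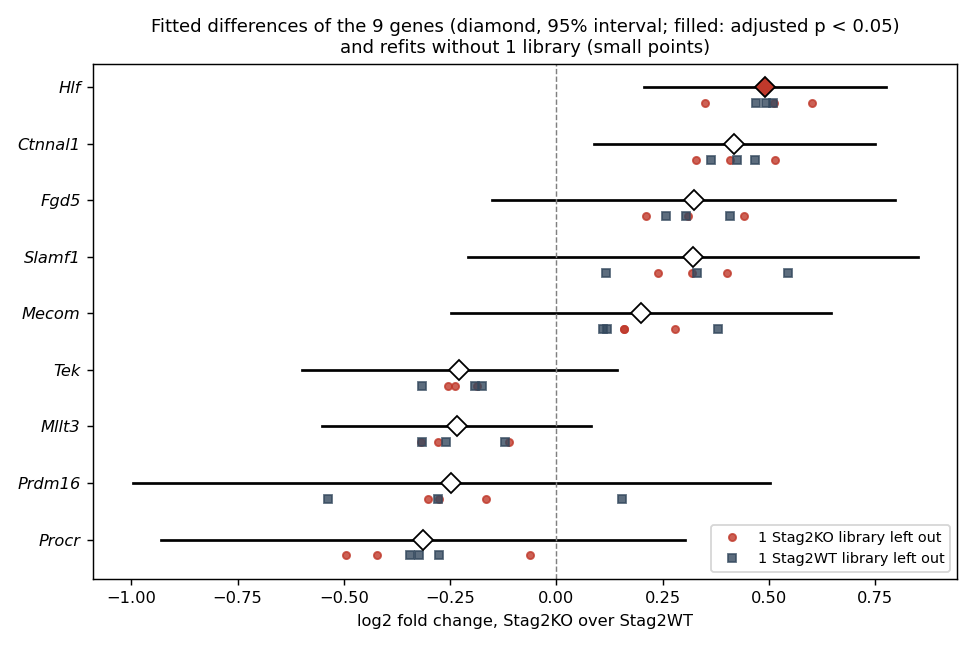
Fitted log2 fold change of each gene, Stag2KO over Stag2WT (diamonds, with 95% intervals as lines), and the refitted values with 1 library left out (circles, a Stag2KO library; squares, a Stag2WT library). The Hlf interval runs from 0.21 to 0.77 and that of Ctnnal1 from 0.09 to 0.75, the other 7 span 0, and the points of Prdm16 lie on both sides of 0.

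None of the 9 intervals reached beyond a 2-fold difference in either direction; the widest was that of Prdm16, whose lower end was a fold change of 0.501. For the 8 genes that were not called, a p that misses the threshold does not show that the groups are alike. Per library, the 9 genes rested on 35 to 2081 reads each, with a counting error of 2.19% to 16.9%. The summed level of the 9 genes was 93.2 to 121 CPM in Stag2KO and 97.0 to 113 CPM in Stag2WT, and the sum over the 7 genes other than Hlf and Mllt3 was 29.3 ± 2.24 CPM in Stag2KO and 27.2 ± 3.99 CPM in Stag2WT (SD, n = 3 each).

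To set the genes beside each other, CPM was divided by the length of each gene's exons in GENCODE M21 (GRCm38), an approximation because the annotation used for counting is not given. Per kilobase, Mllt3 was highest, at 7.11 ± 1.11 CPM per kb in Stag2KO and 8.36 ± 1.13 in Stag2WT. Hlf followed at 5.96 ± 1.04 and 4.24 ± 0.118 CPM per kb in Stag2KO and Stag2WT. The ranges of these 2 genes overlapped in Stag2KO and not in Stag2WT, but within every library Mllt3 was above Hlf. Ctnnal1 came next, at 2.20 ± 0.284 CPM per kb in Stag2KO and 1.65 ± 0.12 in Stag2WT. Slamf1 (1.83 ± 0.208 in Stag2KO and 1.47 ± 0.434 in Stag2WT) and Procr (1.24 ± 0.428 in Stag2KO and 1.55 ± 0.0778 in Stag2WT) overlapped Ctnnal1 in Stag2WT, and in Stag2KO Slamf1 overlapped it while Procr lay below both. Within each Stag2KO library, Ctnnal1 was above Slamf1. Tek, at 0.702 ± 0.0349 CPM per kb in Stag2KO and 0.823 ± 0.0879 in Stag2WT, was above Mecom (0.582 ± 0.0555 in Stag2KO and 0.507 ± 0.105 in Stag2WT), with no overlap in either group. Prdm16 (0.538 ± 0.0558 in Stag2KO and 0.639 ± 0.298 in Stag2WT) did not differ from Mecom beyond its spread. Fgd5 had the lowest mean of the 9, at 0.362 ± 0.0599 in Stag2KO and 0.29 ± 0.0314 in Stag2WT.

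The 9 genes did not share 1 pattern over the libraries. Likeness was measured as the root-mean-square difference of log2 CPM, each gene centred on its own mean over the 6 libraries. Among the 9, the closest pair was Hlf and Ctnnal1, at 0.10, both highest in Stag2KO replicate 2, and the most distant was Hlf and Procr, at 0.55. Next came Mecom and Ctnnal1, at 0.16, and then Mllt3 and Tek, at 0.17, both at their minimum in Stag2KO replicate 3. Mecom and Prdm16, the related factors, were 0.49 apart. Among 9914 named genes of at least 5 CPM, the closest to Hlf were Vsig10 (0.05) and Ptbp2 (0.08). The closest to Ctnnal1 were Bsn (0.05) and Als2cr4 (0.06), to Mllt3 Dus4l (0.04) and Ccdc51 (0.05), and to Tek Hnrnpab (0.04) and Plk4 (0.04). Those closest to Mecom were Nlgn2 (0.06) and Frmd6 (0.07), to Fgd5 Mcoln2 (0.05) and Rab19 (0.05), and to Slamf1 Lrfn4 (0.10) and Rab27b (0.12). Procr was nearest to Serinc3 (0.06) and Lynx1 (0.14), and Prdm16 to Thbs1 (0.13) and the antibody segment Igkv16-104 (0.22). With 6 libraries and so many genes, close profiles are to be found for almost any gene, and the values are a description.

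Relatives and partners of the 9 genes were then read from the same fit. Of 85 such genes in 9 lists, 76 were tested; 18 were higher, 10 were lower and 48 were not called, with a median log2 fold change of 0.05 against 0.01 over all tested genes. That is 36.8% called, against 21.2% of all tested genes, and by list the share called ran from 12.5% in the PRDM family to 66.7% among the 3 HLF relatives. Of 3 HLF relatives, 2 were higher, 0 lower and 1 not called, with 0 to 1 called in the 6 fits without 1 library. Tef, a PAR bZIP gene, rose to 43.0 ± 2.24 CPM in Stag2KO, against 32.5 ± 4.2 CPM in Stag2WT (log2 fold change 0.40, edgeR adjusted p = 0.0286). Nfil3, a bZIP repressor that binds the same sites, rose to 27.4 ± 2.68 CPM in Stag2KO, against 20.1 ± 0.813 CPM in Stag2WT (0.44, adjusted p = 0.0172). The remaining relative, Dbp, also a PAR bZIP gene, did not pass (0.18, adjusted p = 0.491). Tef lost its call without any 1 Stag2KO library (adjusted p = 0.0522, 0.0867 and 0.0623 for replicates 1, 2 and 3) and without Stag2WT replicate 2 (0.0705) or 3 (0.0767). Nfil3 lost it when Stag2KO replicate 1 (0.0522), Stag2KO replicate 3 (0.0646) or Stag2WT replicate 1 (0.0509) was left out.

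Among genes whose proteins act with MECOM or PRDM16, 5 of 10 were higher, 0 lower and 5 not called; 2 to 3 were called in each fit without 1 library. Runx1, a core factor gene of blood formation, rose to 170 ± 10.8 CPM in Stag2KO, against 120.2 CPM on average in Stag2WT (log2 fold change 0.50, edgeR adjusted p = 0.00249). Gata2, a stem cell factor gene that MECOM activates, rose to 216 ± 11.5 CPM in Stag2KO, against 165 ± 6.51 CPM in Stag2WT (0.39, adjusted p = 0.00588). Ctbp2, for a corepressor that both proteins bind, rose by 0.32 (adjusted p = 0.0298), and Smad3, a mediator of TGF-beta signalling, by 0.28 (adjusted p = 0.0388), whereas the other corepressor gene Ctbp1 was not called (-0.14, adjusted p = 0.197). The Ctbp2 and Smad3 calls were each lost in 5 of 6 fits without 1 library, Ctbp2 keeping its call only without Stag2KO replicate 2 (adjusted p 0.0519 to 0.0916 in the others) and Smad3 only without Stag2WT replicate 1 (0.0696 to 0.103 in the others). In the wider PRDM family, 1 of 8 tested genes was higher, 0 lower and 7 not called: Prdm11 rose by 0.59 (adjusted p = 0.00413), and Prdm1, the plasma cell factor gene, was at -0.16 (adjusted p = 0.688).

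Partners of AF9 in transcription elongation had 3 higher, 3 lower and 11 not called of 17 tested, with 2 to 5 called in the fits without 1 library, fewest without Stag2KO replicate 1. Aff1, a scaffold gene of the super elongation complex, rose by 0.44 (edgeR adjusted p = 0.00912) and the kinase gene Cdk9 by 0.26 (adjusted p = 0.0192). The elongation factor gene Ell2 fell by 0.75 (adjusted p = 0.0162) and Psip1, for a chromatin tether of MLL, by 0.31 (adjusted p = 0.0255). The closest relative of Mllt3, Mllt1 (0.00, adjusted p = 0.965), and the AF9 partner Dot1l, a histone methyltransferase gene (0.01, adjusted p = 0.949), were not called. Cdk9 missed the threshold when Stag2KO replicate 1 (0.0635), Stag2WT replicate 1 (0.0504) or Stag2WT replicate 3 (0.0542) was left out, and Psip1 when Stag2KO replicate 1 (0.0557), Stag2KO replicate 3 (0.0921) or Stag2WT replicate 2 (0.0578) was.

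Around the receptor genes, some relatives had larger fitted differences than the receptors themselves and others had smaller ones. In a list of the angiopoietin system and of angiopoietin-like genes, 3 of 8 tested genes were higher, 2 lower and 3 not called. In the fits without 1 library, 3 to 4 were called. The ligand gene Angpt1 rose to 80.8 ± 7.98 CPM in Stag2KO, against 59.4 ± 5.25 CPM in Stag2WT (log2 fold change 0.45, edgeR adjusted p = 0.0141), and the sister receptor gene Tie1 to 23.2 ± 1.15 CPM, against 17.2 ± 2.21 CPM (0.43, adjusted p = 0.032). Dok2, an adaptor gene for TIE2 that myeloid cells also use, rose by 1.15 (adjusted p = 0.0219). The angiopoietin-like gene Angptl2 fell by 1.53 (adjusted p = 0.00259) and the adaptor gene Grb14 by 2.71 (adjusted p = 0.00202), both at low levels (Angptl2 1.33 ± 0.201 CPM in Stag2KO and 3.83 ± 0.514 CPM in Stag2WT, Grb14 0.201 ± 0.0945 CPM in Stag2KO and 1.29 ± 0.147 CPM in Stag2WT). The Tie1 call held only without Stag2WT replicate 3 and was lost in the other 5 fits (adjusted p 0.0551 to 0.0953). Dok2 was not called when Stag2KO replicate 3 (0.062) or any 1 Stag2WT library (0.0656, 0.0871 and 0.0688 for replicates 1, 2 and 3) was left out.

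In the SLAM family 1 of 11 tested genes was higher, 2 lower and 8 not called. Cd84, a SLAM receptor gene of many blood cells, rose to 142 ± 5.43 CPM in Stag2KO, against 82.9 ± 8.3 CPM in Stag2WT (log2 fold change 0.77, edgeR adjusted p = 0.00105). Slamf6 fell by 0.96 (adjusted p = 0.0288) and Slamf9 by 1.66 (adjusted p = 0.041). Cd48, whose protein is absent from mouse long-term stem cells and present on most progenitors, was not called (-0.07, adjusted p = 0.523), nor was Ly9 (0.08, adjusted p = 0.686). The Slamf6 and Slamf9 calls were both lost without Stag2KO replicate 2 and without each Stag2WT library in turn (adjusted p 0.0606 to 0.125). Of the protein C pathway, 1 of 8 tested genes was higher, 1 lower and 6 not called. F5, for coagulation factor V, rose by 1.33 (adjusted p = 0.00369), and the protease-activated receptor gene F2rl1 fell by 2.52 (adjusted p = 0.0186; 0.0533 without Stag2WT replicate 2), with 0.286 ± 0.211 CPM in Stag2KO, against 1.63 ± 0.554 CPM in Stag2WT. The thrombin receptor gene F2r (0.02, adjusted p = 0.952), whose protein EPCR-bound protein C cleaves, and thrombomodulin, Thbd (-0.20, adjusted p = 0.363), were not called.

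For the cytoplasmic genes, 6 genes of the FGD family and its target GTPase Cdc42 were tested; 2 were higher, 1 was lower and 3 were not called. Fgd4 rose by 0.65 on the log2 scale (edgeR adjusted p = 0.00717) and Fgd3 by 0.38 (adjusted p = 0.0138), while Fgd6 fell by 1.19 (adjusted p = 0.00192). Ctnna1, the alpha-catenin gene related to Ctnnal1, fell to 121 ± 5.66 CPM in Stag2KO, against 156 ± 1.8 CPM in Stag2WT (-0.36, adjusted p = 0.005), and it was the 1 lower gene of 5 tested in its list, with 0 higher and 4 not called (2 called without Stag2KO replicate 2). Ctnna1 and Ctnnal1 thus had fitted differences of opposite sign, of which only that of Ctnna1 passed the test.

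**Figure D3:**
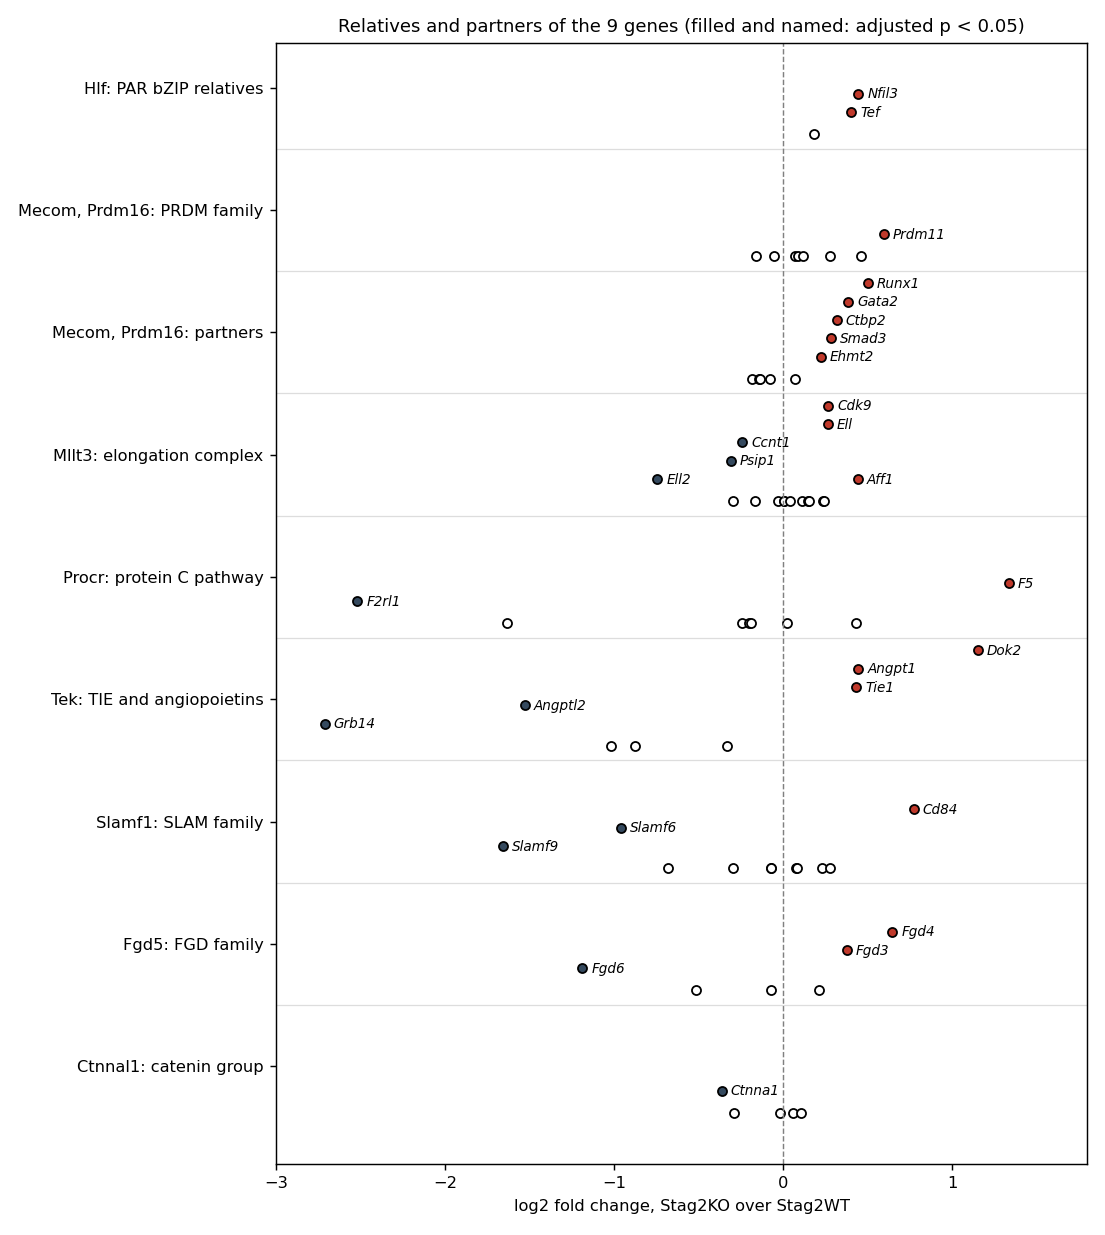
Log2 fold change (Stag2KO over Stag2WT) of relatives and partners, 1 row of the plot per list. Filled and named points had an adjusted p under 0.05 (red higher, dark blue lower) and open points did not. Nfil3 (0.44) and Tef (0.40) lie to the right beside 1 open point, and the partners of MECOM and PRDM16 have 5 filled points, all higher.

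A wider list of 42 other genes that are enriched in mouse stem cells was mixed. Of 41 tested, 11 were higher, 8 lower and 22 not called (12 called without Stag2WT replicate 2). The share called was 46.3%, against 21.2% of all tested genes, in both directions, with a median log2 fold change of 0.01, equal to that of all tested genes at 2 decimals. Erg, an ETS factor gene of stem cells and vessels, rose to 57.9 ± 1.63 CPM in Stag2KO, against 33.4 ± 3.04 CPM in Stag2WT (0.80, edgeR adjusted p = 0.00105). The glutathione transferase gene Gstm1 rose to 653 ± 83.9 CPM in Stag2KO, against 296 ± 34.8 CPM in Stag2WT (1.14, adjusted p = 0.00105). The interferon-induced membrane protein gene Ifitm1 fell to 16.4 ± 2.22 CPM in Stag2KO, against 61.6 ± 13.0 CPM in Stag2WT (-1.91, adjusted p = 0.000833), and the desaturase gene Fads3 to 10.3 ± 1.23 CPM, against 30.2 ± 4.46 CPM (-1.54, adjusted p = 0.000635). Ly6a, the gene of the stem cell antigen SCA-1, was not called (-0.14, adjusted p = 0.825). Kit, which belongs to the progenitor list and not to this one, was not called either (0.05, adjusted p = 0.68). Gstm1 alone supplied most of the higher summed level of this list in Stag2KO: without it, a split chosen after the values were seen, the other 41 genes summed to 1830 to 1913 CPM in Stag2KO and 1739 to 1844 CPM in Stag2WT, which overlap. Several of these genes are used by other marrow cells as well.

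Progenitor genes and markers of other cells moved beside these values, and their part in the results on the 9 genes was not tested. The share called was 40% among progenitor genes, 41.2% among endothelial, 27.8% among megakaryocyte, 75% among both lymphoid and mast or basophil genes, 83.3% among stromal and 90.0% among macrophage genes, against 21.2% of all tested genes. Of 20 progenitor genes, 5 were higher, 3 lower and 12 not called (2 to 9 called in the fits without 1 library), and their summed level was 15568 to 18030 CPM in Stag2KO, against 11732 to 13633 CPM in Stag2WT. In a split chosen after the values were seen, the 4 granule genes Mpo, Elane, Prtn3 and Ctsg carried that difference, with a sum of 12238 to 14763 CPM in Stag2KO and 8331 to 10341 CPM in Stag2WT. The other 16 progenitor genes summed to 3191 to 3330 CPM in Stag2KO and 3292 to 3585 CPM in Stag2WT, which overlap, and the median log2 fold change of all 20 was 0.04. The granule genes Mpo (0.58, edgeR adjusted p = 0.0126) and Prtn3 (0.63, 0.0259) and the surface gene Cd34 (0.53, 0.0222) rose, and the macrophage growth factor receptor gene Csf1r fell by 0.73 (0.00964). The calls of Prtn3, Cd34 and Mpo were lost without Stag2KO replicate 3 (0.0611, 0.0578 and 0.0506), those of Prtn3 and Cd34 also without Stag2WT replicate 1 (0.0659 and 0.0631) or 2 (0.0997 and 0.0881), Prtn3 without Stag2KO replicate 1 (0.0716) and Cd34 without Stag2KO replicate 2 (0.0656).

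Endothelial genes, relevant to Tek, Procr and Fgd5, were 5 higher, 2 lower and 10 not called of 17 (1 to 5 called in the fits without 1 library), with a summed level of 201 to 219 CPM in Stag2KO and 181 to 212 CPM in Stag2WT, and none of the 18 listed was at 0. The median log2 fold change of the 17 tested endothelial genes was -0.21, against 0.01 over all tested genes. Emcn (0.70, edgeR adjusted p = 0.0203) and Flt1 (0.74, 0.0238) rose like Tie1, and the sinusoid gene Stab2 fell by 1.39 (0.00111). The Emcn and Flt1 calls were each lost in 4 of 6 fits without 1 library: both without Stag2KO replicate 3 or Stag2WT replicate 1 or 2, Emcn also without Stag2KO replicate 2 and Flt1 without Stag2KO replicate 1 (adjusted p 0.0503 to 0.0717). Megakaryocyte genes, a lineage close to stem cells, were 5 higher, 0 lower and 13 not called of 18 (808 to 962 CPM in Stag2KO and 702 to 817 CPM in Stag2WT, which overlap). Among the higher were Gp5 (0.84, 0.00473), Itgb3 (0.66, 0.0070) and Nfe2 (0.36, 0.00563). Other genes of this list were below 0 without a call, among them Gfi1b (-0.72, 0.0746) and Tubb1 (-0.52, 0.092), and the list median was 0.24.

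Lymphoid genes, relevant to Slamf1, were 0 higher, 9 lower and 3 not called of 12 (88.7 to 125 CPM in Stag2KO and 215 to 342 CPM in Stag2WT), with Pax5 (-2.83, edgeR adjusted p = 0.000645), Ebf1 (-2.14, 0.000875) and Cd79b (-0.93, 0.00285) lower. Macrophage genes were 0 higher, 9 lower and 1 not called of 10 (320 to 463 CPM in Stag2KO and 1082 to 1226 CPM in Stag2WT), led by Cd163 (-2.44, 7.25e-05), Siglec1 (-3.65, 0.000755), Mrc1 (-3.38, 0.00111) and Vcam1 (-1.36, 0.00154). Stromal genes were 1 higher, 9 lower and 2 not called of 12, with 5 to 6 called without any 1 Stag2WT library (103 to 147 CPM in Stag2KO and 245 to 268 CPM in Stag2WT). Ibsp (-2.02, 0.000372), Lepr (-1.30, 0.00192) and Lpl (-1.78, 0.00561) were among the lower, and Pdgfrb (1.07, 0.00555) was the higher one. Mast cell and basophil genes were 3 higher, 3 lower and 2 not called of 8, with 3 called without Stag2KO replicate 2 (2088 to 2154 CPM in Stag2KO and 2760 to 2843 CPM in Stag2WT). Prss34 (-0.79, 0.000833) and Mcpt8 (-0.67, 0.00105) fell, and Gata2 and Il1rl1 (0.46, 0.0182) rose, the last call lost when replicate 1 (0.0544) or 2 (0.0561) of Stag2KO or replicate 1 (0.0527) or 3 (0.0571) of Stag2WT was left out. None of the listed genes of these 4 groups was at 0 in all libraries. A list of 6 mature lineage markers had 0 higher, 1 lower and 5 not called, with 1 to 3 called under the other settings.

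**Figure D4:**
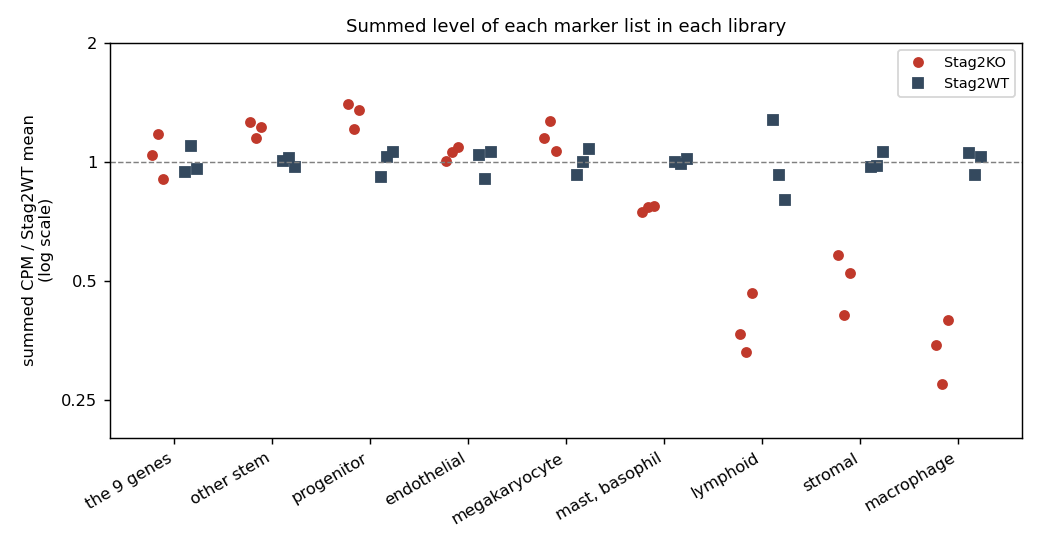
Summed CPM of each marker list in each library, divided by the Stag2WT mean of that list, on a log scale (circles, Stag2KO; squares, Stag2WT). The 9 genes (93.2 to 121 CPM in Stag2KO and 97.0 to 113 CPM in Stag2WT) and the endothelial and megakaryocyte lists overlap between genotypes. The progenitor and other stem lists lie higher in Stag2KO, mostly through 4 granule genes and Gstm1. The lymphoid, stromal and macrophage lists lie lower, as does the mast and basophil list, through Prss34 and Mcpt8. Pecam1, itself higher in Stag2KO, supplies more of the endothelial sum than any other listed gene.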

How the data were processed

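RNA of 6 libraries of lineage-depleted mouse bone marrow was read, 3 Stag2KO and 3 Stag2WT. The authors deposited raw read counts per gene symbol, whole numbers with no normalization. The submitters' processing notes name STAR 2.4, HTSeq 0.6.1, DESeq2 and the mm9 build. The annotation, strand setting and library kit of these samples are not given there or in the labels, so overlapping and antisense genes may share reads. Groups came from the genotype label, and replicates were numbered in accession order.

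Counter totals that name no gene stayed out of library sizes: 8.81% to 12.8% of a library's total lay outside annotated genes, 2.02% to 2.2% was ambiguous and 23.4% to 28.6% aligned to several places. Replicates differed beyond counting noise (chi-square per degree of freedom 20.8 to 43.3). The test was the robust quasi-likelihood test of edgeR 4.0.16 in R 4.3.3, after TMM and filterByExpr, with 1 genotype term and all 6 libraries; p-values were adjusted (Benjamini-Hochberg) over 15708 genes and called under 0.05. Intervals are 95% intervals of that fit, and log2 CPM used a prior count of 2. The fit was also run on simulated counts drawn from the means and dispersions of these data. Far fewer genes were changed there than were called here, so that run does not show how the fit performs on these libraries. Alternative settings were DESeq2 1.42.0, voom (limma 3.58.1), median-ratio size factors, a filter of only 1 read, a filter of at least 1 CPM in at least 3 libraries, no robust estimation, a covariate for the share of reads outside annotated genes, and each library left out.

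Members and lists were chosen with earlier results of these data known. Named are the 9 genes, Stag2, fixed relatives, up to 4 called genes of each list by smallest p, and the 2 genes nearest to each of the 9 in profile, among named genes of at least 5 CPM, except that some genes under this rule are not reported here; the Hlf to Mllt3 ratio was chosen after its values were seen. Genes labelled in the plot of relatives beyond this rule are called members of those lists. Also beyond it, Pecam1, Elane and Ctsg are named for their part in a summed level, and Gfi1b and Tubb1 as lower members of their list. Promoter windows are RefSeq's, GRCm38.p6.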

Additional observations from a re-analysis of the deposited data

How the results depend on the processing

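A fit with the share of reads outside annotated genes as a covariate, which cannot be told apart from genotype, called 67 genes, 0 of the 9 among them, and 0 or 1 gene in each other list. In that fit Hlf had a log2 fold change of 0.15, Ctnnal1 of 0.08, Mecom of -0.24 and Slamf1 of -0.30. Uncalled relatives that also changed sign there were Dot1l (-0.11), F2r (-0.68), Kit (-0.23), Ly6a (0.16) and Thbd (0.33). Near 0, Dot1l was at -0.000011 by DESeq2, Mllt1 at -0.0022 by DESeq2 and -0.0020 with median-ratio size factors, and F2r at -0.029 by limma-voom. The cause of these shifts was not tested.

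Leaving out 1 library gave 1967 to 2548 called genes, against 3333, and 0 to 1 of the 9, with Hlf from 0.35 to 0.60 and Prdm16 from -0.54 to 0.15. These fits have fewer samples. Stag2 stayed called in all 6, from -0.91 to -0.84. Uncalled relatives that crossed 0 were Dot1l (-0.022 to 0.054), F2r (-0.21 to 0.23), Kit (-0.014 to 0.10), Ly6a (-0.41 to 0.28), Ly9 (-0.039 to 0.21), Mllt1 (-0.033 to 0.028) and Prdm1 (-0.38 to 0.087). Under the other 6 settings Hlf stayed called and the other 8 genes stayed uncalled with the same sign. With no filter beyond 1 read, Dok2 (adjusted p = 0.0657) and Slamf9 (0.082) lost their calls. DESeq2 called 3887 genes. No paired analysis was possible because the labels give the groups no shared replicate numbers. Depth limits Procr and Fgd5 most, at 35 to 97 reads a library.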
